A study of Mus musculus with 43 samples.

Results

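The 16 lung RNA libraries of mice given bleomycin and the vehicle of nintedanib were ranked by Col1a1, and the 8 highest were set against the 8 lowest. They were part of 43 libraries, which also held 17 of bleomycin mice given nintedanib and 10 of control mice given vehicle. The high and low groups were chosen by a measured value, Col1a1 in CPM (the count of the gene over the total of its library, times 1e6). Differences between these groups are therefore a description, with no p-value. The only test uses the 17 nintedanib libraries, which took no part in the ranking. Bleomycin breaks DNA and is given to rodents to induce lung fibrosis, and nintedanib inhibits receptor tyrosine kinases of the PDGF, FGF and VEGF families. PolyA RNA came from the inferior lobe, and a library counts as 1 mouse, as the labels list separate samples and say no more. For no group do the labels give strain, sex, age, dose, route or time, and the control vehicle goes unnamed, so bleomycin and a possible other vehicle cannot be told apart in values set beside control.

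Col1a1 encodes a chain of type I collagen, the abundant fibrillar collagen of scars, which fibroblasts make. In fibrosis, fibroblasts activated by TGF-beta and other signals secrete fibrillar collagens, fibronectin and elastin fibre proteins. Prolyl and lysyl hydroxylases modify the collagen chains in the cell, and lysyl oxidases crosslink collagen and elastin outside it. In mouse lungs after bleomycin, monocyte-derived macrophages and transitional alveolar epithelial cells lie beside these fibroblasts.

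Promoters are shown for 4 genes whose level followed Col1a1 over the vehicle libraries, to set their starts side by side: Col1a2 and Col5a1 encode collagen chains, Ltbp2 a latent TGF-beta binding protein of elastic fibres, and C1qc a complement chain of macrophages. Each window holds 250 bases before and 50 after the start of the gene, from RefSeq on build GRCm38.p6. RefSeq windows were at hand for 17 of the 30 genes that separated the high from the low group and for 7 of the 10 genes most like Col1a1. Capitals mark CCAAT (the CCAAT box, in 37.4% of 32851 mouse windows of this length), GGGCGG (the GC box, 35.7%), CAGAC (the core of Smad binding sites, 49.6%) and TGANTCA (the AP-1 site, 7.81%), on either strand.
Col1a2, chr6:4505368-4505667, plus strand: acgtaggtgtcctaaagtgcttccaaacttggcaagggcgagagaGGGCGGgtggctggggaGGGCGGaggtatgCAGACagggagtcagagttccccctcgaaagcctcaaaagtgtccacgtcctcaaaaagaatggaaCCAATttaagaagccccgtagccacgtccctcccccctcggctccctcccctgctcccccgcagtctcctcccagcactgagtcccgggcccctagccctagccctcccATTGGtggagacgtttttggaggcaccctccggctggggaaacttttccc
Col5a1, chr2:27886175-27886474, plus strand: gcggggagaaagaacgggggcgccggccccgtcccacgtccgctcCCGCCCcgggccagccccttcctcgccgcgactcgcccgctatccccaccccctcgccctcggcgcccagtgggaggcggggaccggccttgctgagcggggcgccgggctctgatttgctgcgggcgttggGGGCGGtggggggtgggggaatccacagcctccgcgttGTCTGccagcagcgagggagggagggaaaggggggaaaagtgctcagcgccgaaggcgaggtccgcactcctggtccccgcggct
Ltbp2, chr12:84876442-84876741, minus strand: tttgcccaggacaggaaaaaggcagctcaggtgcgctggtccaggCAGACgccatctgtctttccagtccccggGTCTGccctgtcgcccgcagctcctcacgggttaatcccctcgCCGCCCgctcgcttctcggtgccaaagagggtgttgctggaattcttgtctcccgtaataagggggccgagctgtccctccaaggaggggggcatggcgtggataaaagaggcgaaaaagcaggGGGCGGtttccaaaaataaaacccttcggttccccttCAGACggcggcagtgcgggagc
C1qc, chr4:136892865-136893164, minus strand: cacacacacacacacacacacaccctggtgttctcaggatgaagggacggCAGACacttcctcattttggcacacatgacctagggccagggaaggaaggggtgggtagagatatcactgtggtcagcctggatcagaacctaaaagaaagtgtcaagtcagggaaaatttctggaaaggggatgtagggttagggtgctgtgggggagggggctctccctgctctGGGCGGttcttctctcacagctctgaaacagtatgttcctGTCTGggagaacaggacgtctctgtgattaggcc
The Col1a2 window held the CCAAT box on 2 occasions, GGGCGG on 2 and CAGAC once. In the Col5a1 window GGGCGG stood at 2 places and CAGAC at 1. CAGAC appeared 3 times in Ltbp2 and 2 times in C1qc, with GGGCGG 2 times and 1 time. TGANTCA was in none of these 4 windows. No 2 motifs overlapped, and a match is a description of letters, not of binding.

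Among the high libraries Col1a1 was 550.5 CPM at the lowest, 812.25 at the median and 3999 at the highest. The low libraries had 256.4, 348.85 and 543.7 CPM, so the libraries just inside and just outside the split, at 550.5 and 543.7 CPM, were nearly alike. Both groups lay above all 10 control libraries, which ran from 158.2 to 247.0 CPM. The nintedanib libraries ran from 298.5 to 1322 CPM with a median of 427.1 CPM. Of these, 13 were at or under 491.8 CPM and 4 were at or above 849.3 CPM, with none between.

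**Figure D1:**
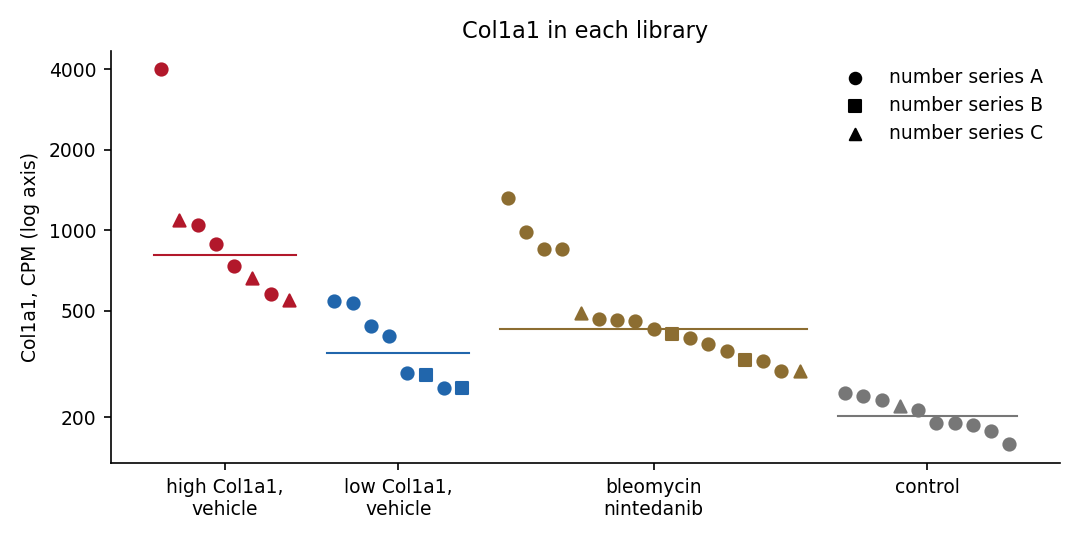
Col1a1 in CPM (log axis) in every library, 1 point each, ordered within its group. Lines are group medians and marker shapes are the 3 number series of the library names. One vehicle library, at 3999 CPM, stands far above the next, at 1091 CPM, and 4 nintedanib libraries stand above a gap.

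One library stood apart. Bleomycin vehicle replicate 4 had 3999 CPM of Col1a1 against 1091 CPM in the next, and among the high libraries it was also lowest in the alveolar epithelial genes Sftpc and Ager. Values without it are set beside some results of high against low, and others moved too. On the log2 CPM scale the difference went from 1.81 to 1.40 for Thbs2 and from 2.02 to 1.64 for Cemip. It went from 0.96 to 0.61 for Grem1, from 1.60 to 1.26 for Arg1 and from 1.15 to 0.87 for Cthrc1. The median of the activated fibroblast list went from 0.63 to 0.49, and that of the mesothelial list from 0.645 up to 0.729. Library totals ran from 14704852 to 19111457 counts in the high group, 13175246 to 18517635 in the low group, 13324549 to 18723538 with nintedanib and 13138281 to 17812995 in control. Numbers in the library names form 3 series, A, B and C, whose meaning the labels do not give. The high group held 5 of A, 0 of B and 3 of C, and the low group 6, 2 and 0. Series and Col1a1 are therefore partly confounded, and values within series A (5 against 6) are set beside some results that differ there. Epithelial, airway and endothelial markers were present in all 16 libraries: on the log2 CPM scale Sftpc ran from 13.10 to 14.97, Scgb1a1 from 12.25 to 14.12, Foxj1 from 5.50 to 7.5 and Pecam1 from 8.75 to 9.89.

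Eln had the largest difference among the named genes that separated the high from the low lungs. Of 14835 genes tested besides Col1a1, 27 (0.182%) had all 8 high libraries above all 8 low libraries, and 3 (0.0202%) had all 8 below. A looser description, a difference of group means of at least 1.5-fold, held 581 genes higher (3.92%) and 423 lower (2.85%). Levels are log2 CPM with TMM scaling and a prior count of 2, and differences are high minus low on that scale. In a lobe, fewer cells of a type and less RNA per cell cannot be told apart.

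Eln, which encodes the elastin of elastic fibres, was 10.80, 11.22 and 11.82 (lowest, median and highest) in the high libraries and 8.37, 9.21 and 10.38 in the low ones. In control it ran from 7.24 to 8.15, so that all 3 groups were apart, in the order high, low, control. The difference was 1.92, and 1.88 without replicate 4. Mfap5, a microfibril protein that elastin is laid upon, was 6.30, 6.77 and 7.5 in high against 5.72, 5.94 and 6.24 in low lungs. Loxl1, the lysyl oxidase-like enzyme needed for elastic fibres, was 7.04, 7.31 and 7.93 against 6.01, 6.69 and 6.97. Both groups of Mfap5 lay above control, at 4.97 to 5.39, whereas low Loxl1 overlapped control, at 5.96 to 6.54.

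The rest of the 12 largest were of several kinds. Cd248, the stromal protein endosialin, was 4.34, 4.76 and 5.96 in high and 3.12, 3.56 and 4.33 in low lungs, a difference of 1.24. Igf1, the insulin-like growth factor, was 6.27, 6.43 and 7.39 against 4.57, 5.73 and 6.26, a difference of 1.0. Low Igf1 was itself far above control, at 3.04 to 3.75, whereas low Cd248 overlapped control, at 3.45 to 4.32, with 3 of 8 low libraries below and 1 above all controls. Tgfb3, a TGF-beta ligand, was 5.54, 5.69 and 5.92 against 4.88, 5.03 and 5.35. Mark1, a microtubule affinity-regulating kinase, was 1.18 higher. Adgrd1, an adhesion G protein-coupled receptor, was 0.98 higher, Pth1r, the parathyroid hormone receptor, 0.81 higher, and Islr, a stromal protein with leucine-rich repeats, 0.76 higher. Zbtb7c and Ndrg4 were 0.66 and 0.64 higher. The remaining separated genes are named after their values were seen: Ndrg1, Mrc2 (the collagen-binding receptor Endo180), Rcn3, Cavin3, Afap1l2, Ppfia4, Ripor3, Ak5, Sv2c, Cgref1, Vav2, Wipi1, Sf3b5, Oxct1 and Trp53 were higher.

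Separated lower genes were few in this split, and Stxbp5 and Tent4b moved little. When libraries were ranked by Col1a1, Col1a2 and Col3a1 together, 12 genes were lower and 9 higher. Stxbp5, which encodes tomosyn, was 4.92, 5.04 and 5.08 in high against 5.18, 5.29 and 5.36 in low lungs, a difference of -0.25. Tent4b, a terminal nucleotidyltransferase, differed by -0.24. The third, Mum1l1, lay at a lower level and differed by -0.65, with means of 1.07 and 1.72. Stxbp5 and Tent4b were apart by less than each of the 12 genes that led the higher set.

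The 10 genes most like Col1a1 over the 16 vehicle libraries were named by likeness, the Spearman rho of log2 CPM with Col1a1, a description with no test, over libraries that share the ranking. Col1a2, the partner chain in type I collagen, came first at 0.98, followed by Mark1, Ltbp2 and the complement gene C1qc at 0.97 each. Eln and the membrane collagenase Mmp14 had 0.96, and Mfap5, the macrophage gene Fcrls, Ndrg1 and the C1q and TNF related C1qtnf6 had 0.95. Spp1, which encodes osteopontin and is a marker of macrophages after bleomycin, had a rho of 0.22.

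**Figure D2:**
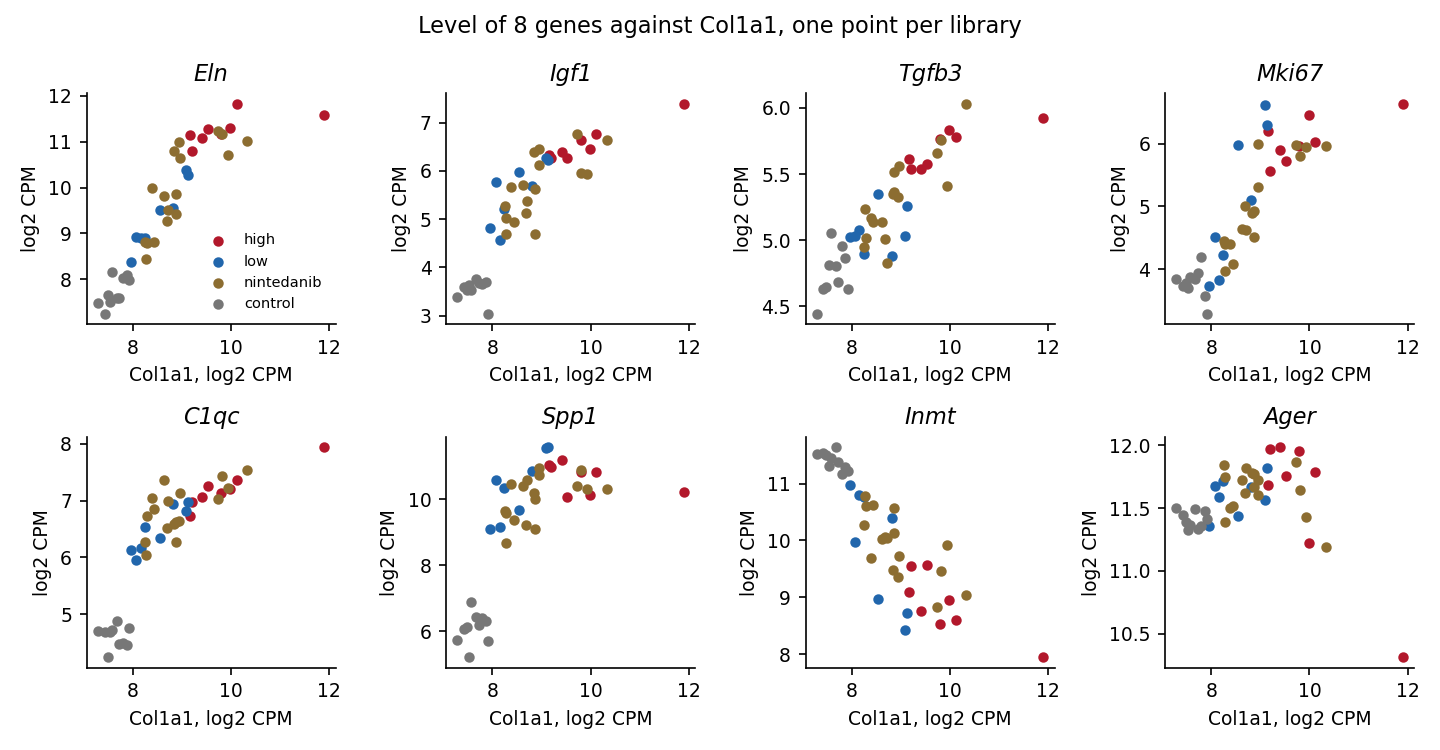
Levels of 8 genes against Col1a1, both in log2 CPM, with 1 point per library, coloured as high or low Col1a1 vehicle, nintedanib or control. Eln, Igf1, Tgfb3 and C1qc climb and Inmt declines along Col1a1 in both bleomycin treatments. Spp1 is far above control in low and high libraries alike, and Ager is at 10.31 in replicate 4 and at or above 11.19 in all others.

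The test asked whether the same genes go with Col1a1 in mice that the ranking did not use. For each gene, the slope of its level on Col1a1 was fitted across the 17 nintedanib libraries with edgeR's quasi-likelihood test, as the log2 change per doubling of Col1a1, with Benjamini-Hochberg adjustment over 14835 genes. At an adjusted p under 0.05, 746 genes rose with Col1a1 (5.03%) and 340 fell (2.29%). Of the 27 genes separated upward in vehicle lungs, 16 rose (59.3%, or 2.14% of the genes that rose), and 26 had a slope above 0. Of the 581 genes at least 1.5-fold higher, 310 rose (53.4%, or 41.6% of those that rose) and 0 fell. Of the 423 at least 1.5-fold lower, 66 fell (15.6%, or 19.4% of those that fell) and 0 rose. The vehicle and nintedanib libraries share no sample.

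Nearly all calls were lost without the 4 nintedanib libraries above the gap. Whether this comes from fewer libraries or from a narrower range of Col1a1 was not tested. Among the 13 libraries under 500 CPM of Col1a1, edgeR called 1 gene, Loxl1 (slope 0.93, adjusted p = 0.0081), and 0 fell, while 916 rising and 906 falling genes had an unadjusted p under 0.05. Slopes there went several ways. Eln had 2.44, Col1a2 0.79 and Col5a1 0.90, with edgeR adjusted p of 0.19, 0.094 and 0.15. List medians were 0.89 for fibrillar collagens (0.79 over all 17) and 1.45 for cell cycle genes (0.84). Some list medians changed sign, among them 0.126 for alveolar type 2 genes (-0.205 over all 17) and 0.105 for type 1 genes (-0.093). So did those of interferon-stimulated genes, at -0.134 (0.259), and dendritic cell genes, at -0.161 (0.178). Without nintedanib replicate 8, the library with the highest Col1a1 of its group, 422 genes rose and 124 fell. Without replicate 16, 225 fell. Without the 2 libraries farthest from the median Col1a1, 329 rose and 112 fell, among them 7 of 11 fibrillar collagens and 21 of 30 cell cycle genes that rose.

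Eln rose by 1.18 ± 0.23 (SE) per doubling of Col1a1 (edgeR adjusted p = 0.0042) and Loxl1 by 0.46 ± 0.06 (adjusted p = 0.00012). Tgfb3 rose by 0.41 ± 0.07 (adjusted p = 0.00072), Mark1 by 0.82 ± 0.10 (adjusted p = 4.5e-05) and Igf1 by 0.72 ± 0.18 (adjusted p = 0.021). Cd248, Mfap5, Pth1r and Islr also passed, with slopes of 0.81, 0.58, 0.52 and 0.47. Adgrd1 (0.35, adjusted p = 0.28), Ndrg4 (0.41, 0.084) and Zbtb7c (0.05, 0.87) did not pass. None of the 3 lower genes passed in edgeR: Stxbp5 had a slope of 0.01 and Tent4b of -0.07, and Mum1l1 of -0.40 at an unadjusted p of 0.021.

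**Figure D3:**
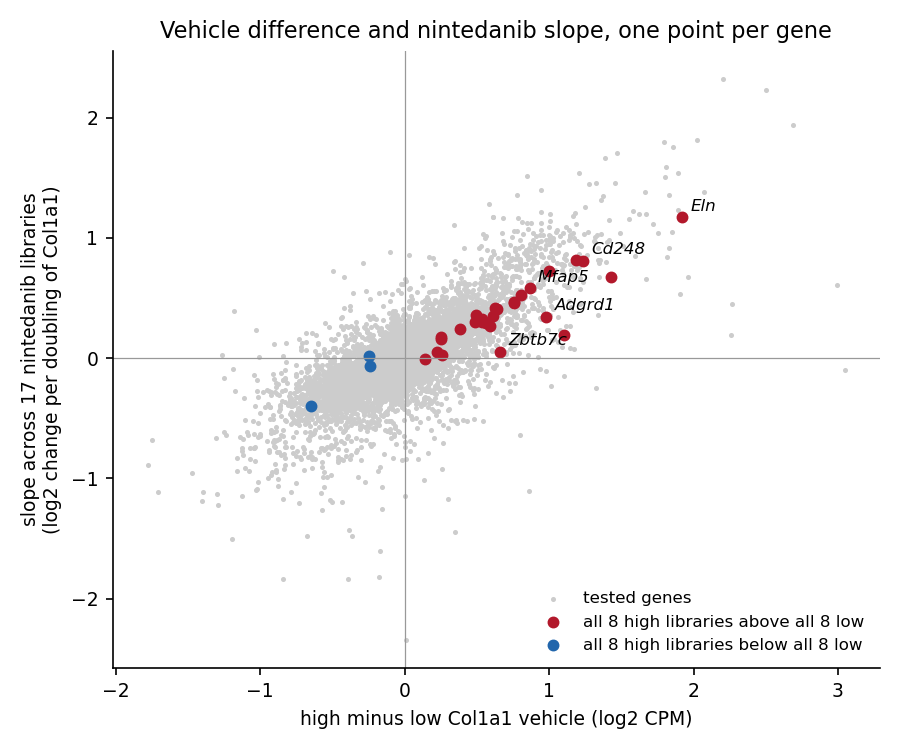
Each gene by its difference between high and low Col1a1 vehicle libraries (horizontal, log2 CPM) and its slope on Col1a1 across the 17 nintedanib libraries (vertical, log2 change per doubling). Of the 27 separated higher genes, 26 have a slope above 0; Eln lies farthest to the upper right among them and Zbtb7c lies near a slope of 0.

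By the smallest p, the rising genes were Col1a2 (0.79 ± 0.04, edgeR adjusted p = 2.3e-09), Col5a1 (0.87, 4.2e-08), Col15a1 (0.85, 1.1e-07), Cemip (1.82, 2.5e-07), Thbs2 (1.59, 8.1e-07) and C1qtnf6 (0.87, 9.6e-07). Cemip binds hyaluronan and takes part in its breakdown, and Thbs2 is a matricellular thrombospondin. The falling genes with the smallest p were Car8 (-0.38, edgeR adjusted p = 6.4e-05), Tril, Vnn3, the zinc transporter Slc39a4, the keratin Krt23 and Acoxl, with slopes from -0.31 to -0.85. In vehicle lungs all 6 of the rising genes were higher in the high group, by 1.09 to 2.02, and all 6 of the falling genes were lower, with differences from -0.65 to -0.18.

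Fibrillar collagens were higher throughout. All 11 of the fibrillar and fibril-associated collagens tested besides Col1a1 had a higher mean in high lungs, 9 of them by at least 1.5-fold, and the median difference was 0.85 (0.72 without replicate 4) against 0.00 over all genes. In the nintedanib libraries 9 of 11 rose and 0 fell, against 5.03% and 2.29% of all genes, with a median slope of 0.79. The counts of each list below stand beside these shares, and beside 3.92% higher and 2.85% lower at 1.5-fold. Col1a2 was 9.51, 9.91 and 11.74 in high and 8.51, 8.96 and 9.51 in low lungs, with 1 low library above the lowest high one. Col3a1, the type III collagen of elastic tissue, was 9.87, 10.38 and 11.31 against 8.80, 9.63 and 10.23, with 3 low libraries above the lowest high one. Col5a1 and Col5a3, chains of the type V collagen that starts fibrils, were 1.21 higher each. Col5a2 rose across the nintedanib libraries by 0.82 ± 0.12 (edgeR adjusted p = 0.00056). Basement membrane and other collagens were mixed: 8 of 19 were at least 1.5-fold higher and 2 lower, with 6 rising and 0 falling. Col15a1 was 1.11 higher and Col8a1, a short-chain collagen of vessel walls, 1.02 higher, and Col7a1 and Col18a1 rose by 0.84 ± 0.10 and 0.43 ± 0.08.

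Enzymes that modify and crosslink collagen were higher with it. Of 22, 17 had a higher mean and 7 were at least 1.5-fold higher against 1 lower, and 11 rose and 1 fell with Col1a1. Loxl2 (0.95 higher, slope 0.75) and Lox (0.83 higher, slope 0.87) are lysyl oxidases, Fkbp10 (0.62 higher, slope 0.52) is a collagen chaperone and P4ha3 (1.42 higher, slope 1.15) a prolyl hydroxylase subunit. All 4 passed in the nintedanib test. High and low libraries of Lox overlapped, at 5.95 to 8.03 and 5.41 to 6.37.

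Glycoproteins and proteoglycans of the matrix followed. Of 28, 25 had a higher mean, 12 were at least 1.5-fold higher and 1 lower, with a median of 0.52, and 16 rose and 1 fell. Fn1, fibronectin, was 10.89, 11.39 and 12.57 in high and 9.13, 10.17 and 11.89 in low lungs, a difference of 1.19, with 7 high libraries below the highest low one. Tnc, tenascin C, was 7.15, 7.87 and 9.27 against 4.84, 6.41 and 8.24, with control at 2.78 to 4.02. Fmod, the collagen-binding fibromodulin, was 1.51 higher. Thbs2, Ltbp2, Tnc and Fmod all rose with Col1a1 in the nintedanib libraries, with slopes of 1.59, 0.85, 1.04 and 0.93.

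Matrix proteases and their inhibitors were higher too. Of 22, 20 had a higher mean, 6 were at least 1.5-fold higher and 0 lower, and 9 rose and 0 fell. Adamts4, an aggrecanase, was 1.90 higher (1.70 without replicate 4) and Adam12 1.36 higher. Timp1, an inhibitor of metalloproteinases, was 4.83, 5.63 and 6.50 against 3.43, 4.02 and 6.22. Serpine2 (slope 0.52, edgeR adjusted p = 1.5e-06), Mmp14 (0.59) and Adamts1 (0.57) rose across the nintedanib libraries.

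TGF-beta genes differed less than the matrix. Of 24 members of the pathway, 19 had a higher mean, 4 were at least 1.5-fold higher and 0 lower, with a median of 0.22, and 8 rose and 1 fell. Among ligands, Tgfb3 separated the groups whereas Tgfb1 was 6.41, 6.58 and 6.88 against 6.12, 6.34 and 6.75 and missed the threshold (slope 0.17 ± 0.06, edgeR adjusted p = 0.092). Inhba, the subunit of activin A, was 1.24 higher and rose by 1.03 ± 0.16. Of the antagonists, Grem1, a BMP inhibitor, was 2.66, 4.64 and 7.0 in high against 1.71, 3.46 and 5.44 in low lungs, with 7 high libraries below the highest low one, and rose by 1.03 ± 0.19. Bambi, a decoy receptor of the pathway, was lower (-0.37) and fell by 0.51 ± 0.10 on the log2 scale per doubling.

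Markers of activated and alveolar fibroblasts went opposite ways. Of 17 genes of activated fibroblasts, 16 had a higher mean, 9 were at least 1.5-fold higher and 0 lower, with a median of 0.63, and 8 rose and 0 fell. Cthrc1, a marker of collagen-producing fibroblasts, was 2.65, 3.62 and 5.55 in high and 1.83, 2.49 and 3.08 in low lungs, and rose by 1.01 ± 0.11 (edgeR adjusted p = 1.4e-05). Cilp, the cartilage intermediate layer protein, was 1.34 higher, Ltbp2, also in the list of matrix glycoproteins and proteoglycans, 1.26 higher, and Fst and Ccn4 rose by 1.12 each. Postn, periostin, differed by 0.40, with 4 of 8 high libraries above all controls and 3 of 8 low libraries below all controls, and its slope of 0.26 had an edgeR adjusted p of 0.051. Of 16 genes of alveolar fibroblasts, 14 had a lower mean, 3 were at least 1.5-fold lower and 0 higher, and 3 fell and 0 rose. Over all genes 2.85% were at least 1.5-fold lower, and 2.29% fell. Inmt, an indolethylamine methyltransferase, was 7.95, 8.86 and 9.56 against 8.43, 10.19 and 10.98, below control at 11.16 to 11.63 in every library of both groups. The amino acid transporter Slc7a10 was lower (a difference of -1.71), as was Itga8, an integrin chain (-0.42), and both fell with Col1a1, as Inmt did.

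Genes of adventitial fibroblasts, pericytes and smooth muscle were higher by less than those of activated fibroblasts. Of 15 adventitial genes 12 had a higher mean, with a median of 0.26. Among them 5 were at least 1.5-fold higher and 0 lower, and 3 rose: Col15a1, Cd34 and Igfbp4. Col15a1 is also in the list of basement membrane and other collagens. Smpd3, a sphingomyelinase, was 1.06 higher with a slope of 0.34 that did not pass (edgeR adjusted p = 0.53). Of 20 genes of pericytes and smooth muscle 15 had a higher mean, with a median of 0.23, 3 were at least 1.5-fold higher and 1 lower, and 3 rose. Over all genes 3.92% were at least 1.5-fold higher and 2.85% lower, and 5.03% rose. Rgs5, a pericyte gene, was 1.36 higher and rose by 1.03 ± 0.16 with Col1a1, and Cspg4 and Notch3 rose by 0.58 and 0.27. Acta2, the smooth muscle actin of myofibroblasts, was 7.03, 7.38 and 8.80 against 6.48, 6.76 and 7.52, around control at 6.93 to 7.49, and its slope of 0.20 did not pass (adjusted p = 0.55). Actg2 behaved alike, 0.79 higher with a slope of 0.15 (adjusted p = 0.82).

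Cell cycle genes were higher as a group. All 30 had a higher mean in high lungs, 22 by at least 1.5-fold, with a median of 0.83 (0.54 within series A), and 27 of 30 rose and 0 fell across the nintedanib libraries. Mki67 was 5.56, 6.0 and 6.64 in high and 3.72, 4.81 and 6.63 in low lungs. The low lungs were wide, with 3 libraries above the lowest high library and 2 inside the control range of 3.28 to 4.18. Ccnb1, cyclin B, was 1.14 higher (0.81 within series A), and Ube2c, Tpx2 and Kif11, which act in mitosis, were 1.12, 1.03 and 0.86 higher with slopes of 1.09, 1.0 and 0.95. Within series A Kif11 was 0.48 higher. Of 25 p53 targets and senescence genes, 5 rose and 0 fell, against 5.03% and 2.29% of all genes, and the median difference was 0.13. Cdkn1a, which encodes the cell cycle inhibitor p21, was 7.06, 7.22 and 7.53 against 6.47, 6.94 and 7.18, and both lay above control, at 4.47 to 5.39. Its slope of 0.25 did not pass (edgeR adjusted p = 0.064). Cdkn2a was 0.88 higher and rose by 0.75 ± 0.20, as did Eda2r and Phlda3 by 0.39 and 0.25 and the spindle gene Ckap2 by 0.98.

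Macrophage genes split. Of 24 genes of profibrotic and monocyte-derived macrophages 18 had a higher mean, 6 were at least 1.5-fold higher and 0 lower, with a median of 0.27. Their summed level was not higher, at 16910 to 21330 CPM (median 19750) in high and 12740 to 25670 CPM (median 22260) in low lungs. The complement genes C1qa, C1qb and C1qc were 0.72, 0.77 and 0.72 higher. C1qc was 6.73, 7.17 and 7.94 in high and 5.96, 6.45 and 6.98 in low lungs, and 1 high library lay below the highest low one. Arg1, arginase, was 1.60 higher, with 7 of 8 high libraries below the highest low one. Spp1 was 10.08, 10.83 and 11.18 in high and 9.11, 10.46 and 11.57 in low lungs, a difference of 0.30 that was -0.08 within series A. In every library of both groups it lay above control, at 5.21 to 6.89. The slope of Spp1 was 0.46 ± 0.23 (edgeR adjusted p = 0.27). In the nintedanib test 5 of 24 rose and 0 fell, against 5.03% and 2.29% of all genes. Among the 5 were C1qa (0.49), Pdgfc (0.39), C1qb (0.46) and C1qc (0.42). But 0 passed within series A, without the 5 libraries with Adipoq, or without the 2 libraries farthest from the median Col1a1. Resident alveolar macrophage genes had a median of 0.17 (0.055 without replicate 4 and 0.094 within series A), and edgeR called 0 of 16, with 0 rising and 2 falling at an unadjusted p under 0.05 and 1 falling in DESeq2. Marco was 2.87 to 5.96 in high and 1.65 to 6.43 in low lungs, and Il18 was 0.37 higher.

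Alveolar epithelium was slightly lower and its transitional state higher. Of 22 genes of alveolar type 2 cells, 19 had a lower mean, with a median of -0.19 (-0.09 without replicate 4 and -0.30 within series A), and 5 fell and 0 rose with Col1a1, but 0 fell without the 2 libraries farthest from the median. Sftpc was 13.10, 14.29 and 14.45 in high and 14.08, 14.34 and 14.97 in low lungs. Sftpa1 and Lyz1 were lower (-0.55 and -0.62), and Sftpa1, Lyz1, Etv5 and Lamp3 fell across the nintedanib libraries with slopes of -0.60, -0.84, -0.36 and -0.28. Among the 13 libraries under 500 CPM the slopes of Sftpc and Sftpa1 were 0.01 and 0.02. Of 18 genes of alveolar type 1 cells 12 had a lower mean, and the median was -0.10 (0.05 without replicate 4 and -0.27 within series A). Of these 4 fell with Col1a1, but without the 2 libraries farthest from the median Col1a1 0 fell and 1 rose. Cav1, Hopx, Sec14l3 and Cyp2b10 fell by 0.27, 0.27, 0.31 and 0.34, whereas Ager differed by -0.02 (0.16 without replicate 4 and -0.15 within series A) and did not pass (slope -0.09, edgeR adjusted p = 0.53). Igfbp2 was lower (-0.53, and -0.29 without replicate 4), with a slope of 0.05. Of 19 genes of transitional alveolar epithelium, 17 had a higher mean and 6 were at least 1.5-fold higher, with a median of 0.34 (0.13 within series A), and 5 rose and 0 fell. Cldn4, a claudin, was 5.42, 6.0 and 7.02 against 4.15, 4.76 and 6.22, and rose by 0.76 ± 0.10 (adjusted p = 0.00013). Sfn and Tnip3 rose by 0.50 and 0.88, Ndrg1 by 0.33 and Mdk by 0.61. Ndrg1 is also in the glycolysis and hypoxia list. Krt8, a keratin of the transitional state, was 8.63, 8.94 and 9.24 against 8.15, 8.53 and 9.23, above control at 7.56 to 8.07 in both. Its difference was 0.31 (0.09 within series A), with 7 of 8 high libraries below the highest low one. The slope of Krt8, 0.08, did not pass (edgeR adjusted p = 0.58).

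Most airway genes had lower means, but the club and secretory genes were about level within series A. Of 20 club and secretory genes 15 had a lower mean, 2 were at least 1.5-fold lower and 3 higher. Of 20 genes of ciliated cells 19 had a lower mean, 3 were at least 1.5-fold lower and 0 higher. The median was -0.34 over 20 club and secretory genes (-0.02 within series A) and -0.50 over 20 genes of ciliated cells (-0.12). Cbr2 was lower (-0.74, and -0.39 within series A) and fell by 0.53 ± 0.13 across the nintedanib libraries. Ltf was 1.33 higher. Hydin and Spag17 differed by -0.76 and -0.66, and by -0.23 and -0.28 within series A. Across the nintedanib libraries 1 of 20 club genes and 2 of 20 ciliated genes fell with Col1a1, against 2.29% of all genes. The ciliated genes were Tppp3 and Sec14l3, and Sec14l3 is also in the alveolar type 1 list. Summed over the list, club cell genes ran from 9420 to 14700 CPM in high and from 7513 to 29810 CPM in low lungs. Their part in the other results was not tested.

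Among vessels, most capillary genes had lower means, and most lymphatic genes higher means though their summed level was about even. Of 20 capillary genes 18 had a lower mean, with a median of -0.29, and 4 fell and 0 rose. Cyp4b1 was 6.38, 7.70 and 8.22 in high and 7.67, 8.65 and 9.34 in low lungs, and fell by 0.60 ± 0.10 (edgeR adjusted p = 0.0012). Ednrb, an endothelin receptor, was lower (-1.02) and fell, and so did Apln and Tmem100. Of 22 pan-endothelial genes 20 had a lower mean, with a median of -0.16 (-0.08 without replicate 4); Clec14a and Ramp2 differed by -0.65 and -0.44, and Kdr, the VEGF receptor, by -0.34, with a slope of -0.20 that did not pass (adjusted p = 0.24). Yet 3 pan-endothelial genes rose with Col1a1, Ecscr, Sox17 and Vwf, by 0.21 to 0.38, and 0 did within series A. Of 8 lymphatic genes 7 had a higher mean, with a median of 0.45, and 1 was at least 1.5-fold higher and 0 lower. In the nintedanib test 4 rose: Stab2 (0.68), Flt4 (0.29), Prox1 (0.65) and Reln (0.47). Without the 2 libraries farthest from the median Col1a1, 0 of the capillary, pan-endothelial and lymphatic genes passed. Summed CPM of the lymphatic list overlapped, at 556.9 to 676.4 (median 603.5) in high and 491.8 to 690.2 (median 599.1) in low lungs.

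Mesothelial genes had higher means in high lungs and were not called in the nintedanib test. Of 14, 13 had a higher mean and 8 were at least 1.5-fold higher, with a median of 0.65. Msln, mesothelin, was 8.02, 8.20 and 8.72 in high and 5.01, 7.60 and 8.33 in low lungs, and Slurp1 was 1.01 higher. In edgeR 0 of 14 passed, with 0 at an unadjusted p under 0.05 and 0 in DESeq2, and the slope of Msln was 0.48 ± 0.25 (adjusted p = 0.30).

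Lymphocyte and red cell genes were level or lower. Of 21 genes of B and plasma cells 18 had a lower mean, 7 were at least 1.5-fold lower and 0 higher, with a median of -0.44, and edgeR and DESeq2 called 0 of 21, with 0 at an unadjusted p under 0.05 in edgeR. Summed over the list, B and plasma cell genes ran from 986 to 1282 CPM (median 1104) in high and 945.8 to 2547 CPM (median 1037) in low lungs. Bank1 differed by -0.78. T and NK cell genes had a median of -0.02 (-0.19 without replicate 4 and 0.25 within series A); Gzma was lower (-0.58) and fell by 0.75 ± 0.20, and Klrd1 differed by -0.49 (-0.22 within series A). Ptprc, the pan-leukocyte CD45, differed by -0.09 (-0.19 without replicate 4) with a slope of 0.00 ± 0.09. All 12 genes of erythrocytes and platelets had a lower mean, with a median of -0.46. Ppbp was lower (-1.05) and fell by 0.52 ± 0.12, and Itga2b and the globin Hbb-bs differed by -0.62 and -0.38.

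Genes of dendritic cells, inflammation, interferon and stress differed among themselves. Of 21 genes of dendritic cells and antigen presentation 18 had a higher mean, with a median of 0.27, and 1 rose (1 of 21, against 5.03% of all genes): Fscn1, the actin bundler fascin, was 5.57, 6.18 and 7.04 against 4.47, 4.97 and 5.92 and rose by 0.79 ± 0.12. Ccl17 was 1.0 higher. Of 22 neutrophil and cytokine genes 7 were at least 1.5-fold higher and 1 lower, with a median of 0.28 (0.16 without replicate 4 and 0.03 within series A), and 4 rose: Nos2, Osm, Ccl2 and Lif. Saa3, a serum amyloid, was 2.17, 4.87 and 5.75 in high and 0.34, 2.91 and 5.80 in low lungs, with a slope of 0.53 that did not pass (edgeR adjusted p = 0.62). Interferon-stimulated genes had a median of -0.02, and 7 of 21 rose with Col1a1 across the nintedanib libraries and 0 fell. That count was 1 without nintedanib replicate 8 or without the 2 libraries farthest from the median Col1a1, 2 without the libraries with Adipoq and 3 with the rank of Col1a1 in place of its level. Oas3 (0.56 higher, slope 1.0), Oas2 (0.42, 0.59), Irf7 (0.16, 0.50) and Isg15 (0.00, 0.66) were among them, and Cxcl10 was 0.77 higher. Of 21 genes of glycolysis and hypoxia 6 rose, against 5.03% of all genes, among them Eno1, Pfkl, Pgk1 and Ndrg1 with slopes of 0.28, 0.21, 0.18 and 0.33. But 1 rose without replicate 8 or without the 2 farthest libraries and 2 without those with Adipoq. In the unfolded protein response edgeR and DESeq2 called 0 of 21, with 4 rising and 1 falling at an unadjusted p under 0.05; Sdf2l1 and Creb3l1 were 0.51 and 0.50 higher. Immediate early genes had a median of -0.18, with Nr4a1 and Egr3 at -0.60 each (Egr3 at -0.36 within series A), and 0 of 22 passed in either tool, with 2 rising and 2 falling at an unadjusted p under 0.05.

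**Figure D4:**
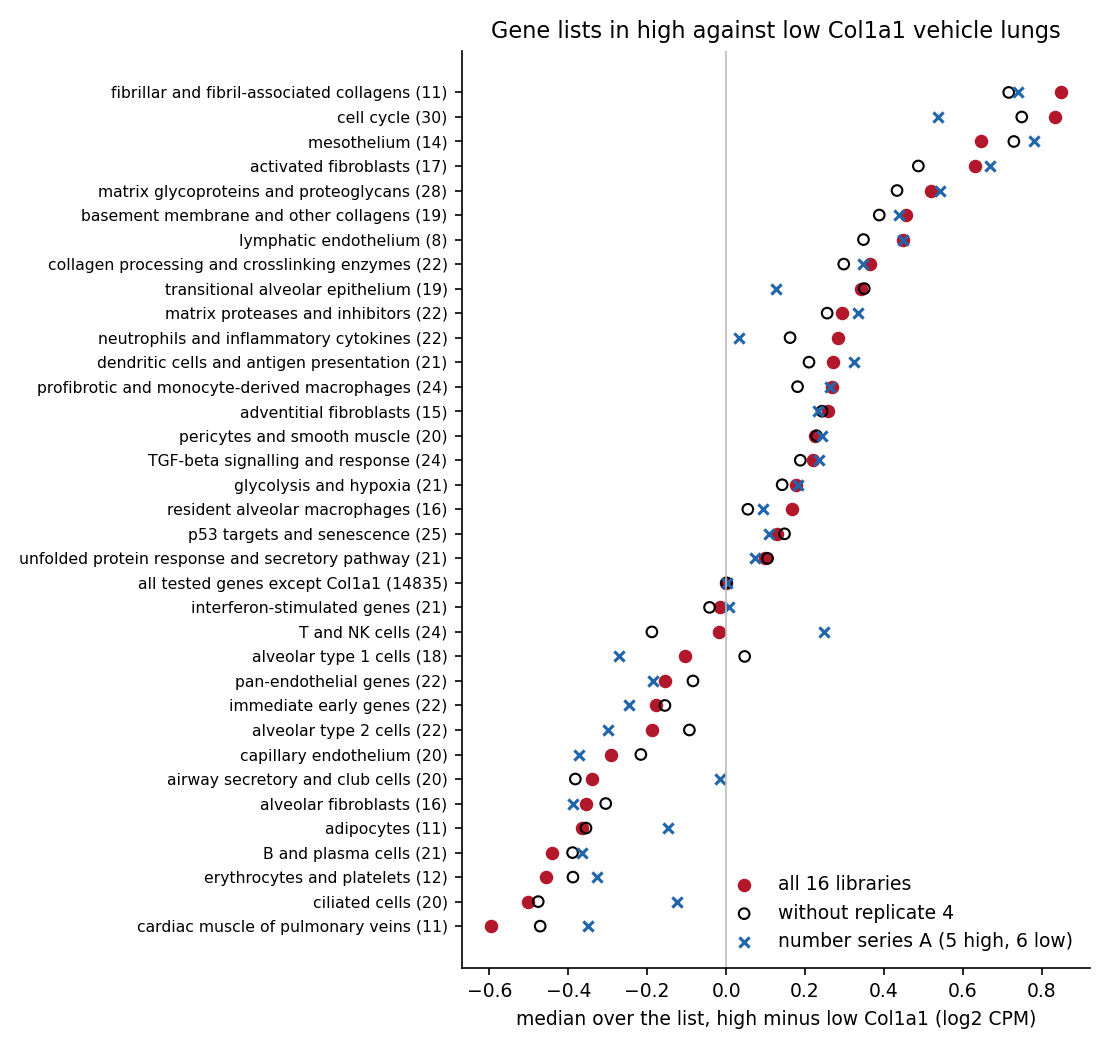
Median difference of each gene list between high and low Col1a1 vehicle libraries (log2 CPM), with the number of genes tested in brackets. Filled points use all 16 libraries, open points leave out replicate 4 and crosses use number series A alone. Fibrillar collagens (0.85) and cell cycle (0.83) are at the top, and cardiac muscle (-0.60) and ciliated cells (-0.50) at the bottom.

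Cardiac muscle genes were lower in high lungs, and summed adipocyte genes were level, at medians of 523.3 and 516.3 CPM, though the median of the single adipocyte genes' differences was -0.37 (-0.15 within series A). Genes of the cardiac muscle around pulmonary veins summed to 39.77 to 307.0 CPM in high and 31.83 to 641.7 CPM in low lungs, with a median difference of -0.60 over 11 genes (-0.35 within series A), and Myh6, cardiac myosin, had no count in 2 high and 1 low library. Myl4 differed by -0.67. Adipocyte genes summed to 377.2 to 602.3 and 305.6 to 631.6 CPM, and Adipoq, the fat cell hormone, had no count in 7 of 8 high and 5 of 8 low libraries. Fabp4 and Lpl differed by 0.09 and 0.07, and by -0.16 and -0.05 within series A. In the nintedanib group 5 of 17 libraries had at least 1 CPM of Adipoq, and without them 464 genes rose and 168 fell with Col1a1. Neither list had a gene that passed in edgeR or DESeq2, and 1 gene of each fell at an unadjusted p under 0.05. The part of these tissues in the other results was not tested.

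Set beside the 10 control libraries, low Col1a1 lungs lay well above control in profibrotic macrophage and transitional epithelial genes. They lay nearer to control in fibrillar collagens. The high and low groups share these controls, so their values are given side by side and not compared by overlap. Control held 9 libraries of series A, 0 of B and 1 of C. At least 1 CPM of Adipoq was present in 8 of 10 control and 0 of 16 vehicle libraries. Cardiac muscle genes summed to 358.6 to 1879 CPM in control and 31.83 to 641.7 CPM in vehicle libraries. The part of series, fat and cardiac muscle in differences from control was not tested. Separated from control were 1864 genes higher (12.6%) and 1390 lower (9.37%) in high lungs, and 689 higher (4.64%) and 305 lower (2.06%) in low lungs. Of 24 genes of profibrotic and monocyte-derived macrophages, 19 lay above all controls in high and 15 in low lungs. Their median differences from control were 1.85 and 1.51. For 16 resident alveolar macrophage genes the counts were 7 and 3 and the medians 0.945 and 0.654. Of 30 cell cycle genes, 29 lay above all controls in high lungs and 1, the transcription factor gene E2f1, in low lungs, with medians of 2.0 and 1.12. Most low libraries still lay above all controls, 7 of 8 for Ccnb1 and 6 of 8 for Mki67, Ube2c and Tpx2. For Kif11, 5 of 8 lay above and 2 below all controls. For the 11 fibrillar collagens the counts of genes above all controls in high and low lungs were 8 and 4 and the medians 1.72 and 0.60. For 19 transitional epithelial genes they were 14 and 10, with 1.47 and 0.96, and for 25 p53 targets 14 and 11, with 0.72 and 0.57. Below all controls were 11 and 4 of 16 alveolar fibroblast genes and 13 and 6 of 20 capillary genes. Of the B cell list 12 of 21 lay below all controls in high lungs and 0 in low lungs.

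**Figure D5:**
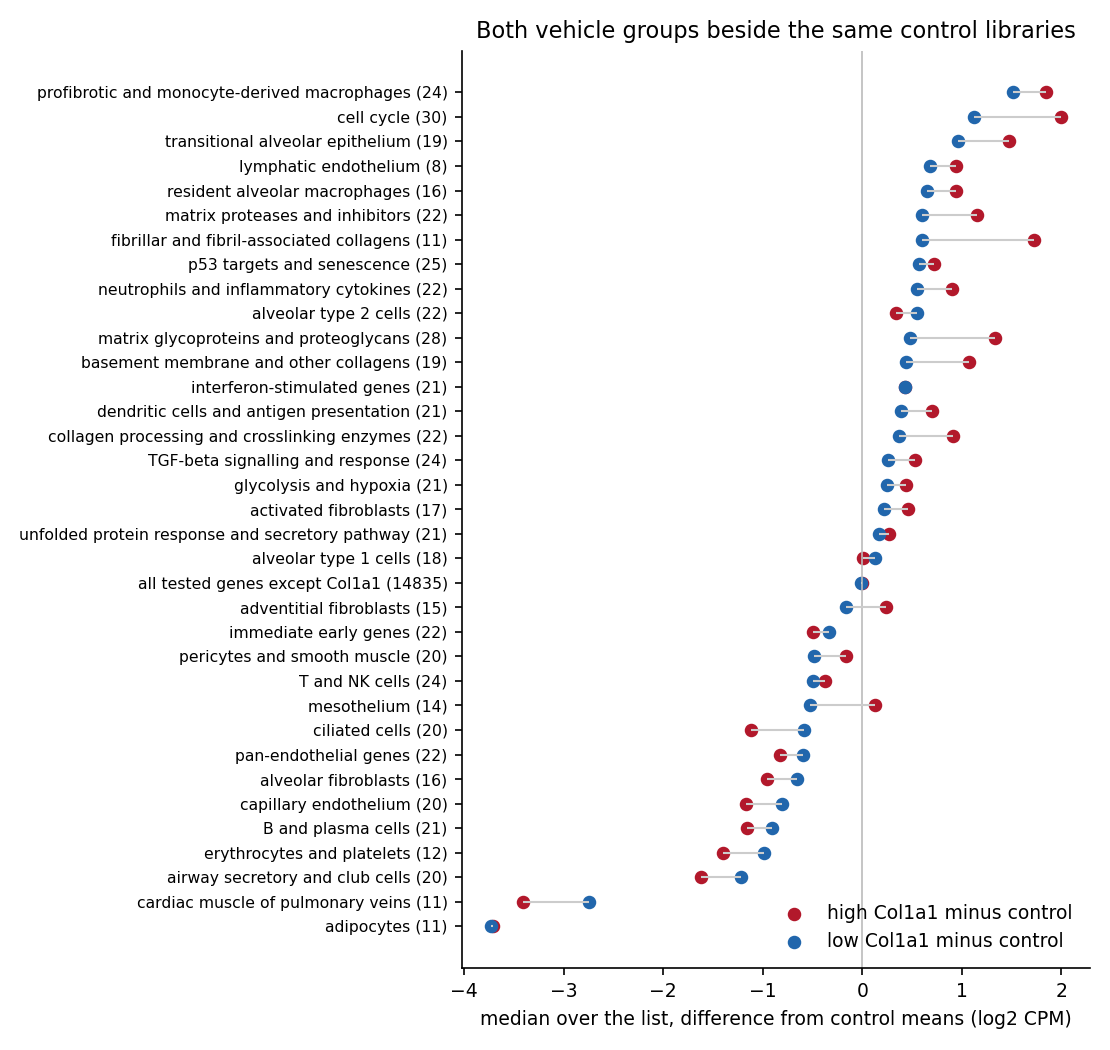
Median difference of each gene list from the means of the same 10 control libraries (log2 CPM), for high and low Col1a1 vehicle libraries, with the number of genes tested in brackets. Profibrotic and monocyte-derived macrophages are at 1.85 and 1.51 and resident alveolar macrophages at 0.945 and 0.654. Fibrillar collagens are at 1.72 and 0.60 and cell cycle genes at 2.0 and 1.12.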

How the data were processed

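The authors deposited a table of raw gene counts for all 43 libraries. The submitters' processing notes name the build GRCm38, R 3.6.0 and STAR 2.7.0f without saying what each did. How reads were counted, with which strand setting and filters, is not given in the sources used. Per the labels' protocols, polyA RNA of the inferior lobe was made into directional libraries and sequenced single-end. The table held 21938 genes, all with a symbol in GENCODE for GRCm38.

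Libraries were ranked by Col1a1 CPM over library totals. Log2 CPM used TMM factors and a prior count of 2 (edgeR 4.0.16, R 4.3.3). Genes passed edgeR's filter by group at a minimum count of 10 and a minimum total of 15, which left 14836 genes, Col1a1 included, and 99.96% of the counts. High against low and both against control were described without a test, as the rule used Col1a1 in these libraries. Slopes across the 17 nintedanib libraries were tested two-sided with edgeR's quasi-likelihood test, with robust dispersions and Benjamini-Hochberg adjustment. The test was checked on simulated data. DESeq2 1.42.0 was an alternative. Across 301 pairs of libraries of the same group chi-square per degree of freedom was at least 5.27, so no library was counted as a copy. P-values rest on the spread between libraries, which may in part be technical. Strand use in counting is unknown, so overlapping genes on opposite strands may share reads.

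The members, the 34 gene lists and the tests were chosen with earlier results of these data known. Of 651 genes in the lists, 647 were found. Named genes were, at a mean log2 CPM of at least 2, the 12 with the largest difference among those separated in each direction, the 10 most like Col1a1, the 6 with the smallest p in each direction, up to 4 separated or otherwise 2 members of each list with the largest difference, and a set always given. Up to 4 members of each list with the smallest p among those that passed, E2f1 and the remaining separated genes were named after their values were seen.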

Additional observations from a re-analysis of the deposited data

Results flagged for a closer look

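Values here are log2 CPM. In each group of 8 or 10 libraries, 43 genes were examined for a highest or lowest library far from its neighbour by Dixon's criterion. Of 129 groups, 18 were flagged, and chance flags about 1 in 20. Many of the genes go together, so the flags are not independent of each other.

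Replicate 4 of the bleomycin vehicle group accounted for most flags. Among the 8 high libraries it was highest in Col1a1 (11.901, next 10.118), Col1a2 (11.737, next 10.250), Col3a1 (11.307, next 10.525), Fn1 (12.571, next 11.639), Postn (9.125, next 8.675), Cthrc1 (5.555, next 3.956), Cd248 (5.960, next 4.848), Igf1 (7.387, next 6.759), Islr (6.022, next 4.790) and C1qtnf6 (6.572, next 5.507). It was lowest in Sftpc (13.101, next 14.070) and Ager (10.313, next 11.221). The high group was formed by Col1a1, and Cd248, Igf1, Islr and C1qtnf6 were named because they went with Col1a1 in these libraries. The flags on them and on the collagen genes are therefore a description of the library with the most Col1a1.

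The other flags were single values. Adipoq in high replicate 6 was -2.410 against -3.031, the value of a library with no count. Pth1r was lowest in low replicate 12 at 1.333 (next 2.415). In control, Mark1 was lowest in replicate 5 at 2.389 (next 2.634), Igf1 in replicate 4 at 3.038 (next 3.389), Tent4b in replicate 4 at 5.769 (next 5.852) and Ndrg1 in replicate 1 at 4.816 (next 4.997).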

How the results depend on the processing

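Counts of separated genes moved with the choice of libraries. Higher and lower genes numbered 27 and 3, but 9 and 12 when libraries were ranked by Col1a1, Col1a2 and Col3a1 together (7 of 8 high libraries shared), 698 and 479 for the 5 highest against the 5 lowest, and 97 and 53 within series A. Lower genes numbered 5 with library totals as scale and 5 without the library with the highest Col1a1. Leaving out 1 vehicle library at a time gave 27 to 65 higher and 3 to 22 lower genes, with 65 and 14 without replicate 2, 61 and 22 without replicate 11 and 41 and 11 without replicate 15. Smaller groups overlap less by construction.

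Rising and falling genes across the nintedanib libraries numbered 746 and 340. Falling genes numbered 578 with DESeq2. Without the 2 libraries farthest from the median Col1a1 there were 329 and 112, without the libraries with Adipoq 464 and 168, and among the libraries under 500 CPM 1 and 0. Leaving out 1 library at a time gave 422 to 803 rising and 124 to 468 falling genes. The cause was not tested, and all but the DESeq2 setting also leave fewer libraries. Of the named genes that passed across all 17 libraries, 4 had slopes of the opposite sign among the libraries under 500 CPM: Sftpa1 (0.019), Sftpc (0.011), Igfbp4 (-0.197) and Mdk (-0.127). The use of those libraries alone and the removal of the library with the highest Col1a1 were chosen after seeing the data. Other scaling moved the median of all genes by at most 0.002. No paired analysis was possible because replicate numbers here follow accession order and the labels give none.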
